A study of Mus musculus with 6 samples.

Results

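Muscle stores the calcium that triggers contraction in the sarcoplasmic reticulum, and 10 genes that encode the release channels, the uptake pumps, the luminal calcium buffer and their partners were followed here during differentiation of C2C12 cells. The genes were *Ryr1*, *Ryr3*, *Atp2a1*, *Atp2a2*, *Atp2a3*, *Casq1*, *Casq2*, *Trdn*, *Jsrp1* and *Sln*, chosen by gene symbol, and all 10 were found among the 54525 gene rows of the deposited tables. C2C12 is an established mouse myoblast line, and its cells withdraw from the cell cycle and fuse into multinucleated myotubes when serum is lowered. RNA-seq was performed on 3 libraries of C2C12 myoblasts at day 0 (D0) and 3 libraries at day 5 of differentiation (D5). All 6 were labelled wild type with no treatment, and so differ by label only in the day. The cell type label reads muscle myoblasts for D5 as well as D0, whereas the study's methods describe the D5 cells as myotubes formed in medium with horse serum. The cells are 1 immortal line without nerve or load, and the libraries hold whole cultures, so fewer cells of a type and less RNA per cell cannot be told apart in any value given here.

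During excitation-contraction coupling, a voltage sensor in the T-tubule membrane opens ryanodine receptors in the facing membrane of the sarcoplasmic reticulum, and calcium flows out onto the myofilaments. SERCA pumps, the products of the *Atp2a* genes, return it to the lumen, where calsequestrin holds it close to the release sites. Triadin and related junctional proteins tie calsequestrin to the channel. Small membrane peptides such as sarcolipin and phospholamban set the activity of the pump. Cardiac muscle uses mainly *Atp2a2* and *Casq2*, and fast adult muscle mainly *Atp2a1* and *Casq1*.

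Expression of 8 of the 10 genes was increased in D5 compared to D0, and none was decreased. Calls were common in this comparison: of all genes tested 42.2% were higher at D5, 40.8% were lower, and 82.9% were called in either direction. The rises ran from 3.54-fold for *Atp2a2*, a pump already made in myoblasts, to 1285-fold for *Casq1*, a luminal buffer close to absent there. *Atp2a3*, a pump of non-muscle cells, did not pass the test, and *Sln*, which encodes sarcolipin, held too few counts to be tested. Among the pumps, *Atp2a1* went from 1.01% ± 0.0483 to 61.8% ± 0.711 (SD, n = 3) of SERCA transcripts.

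The promoters are shown so that members that rose from a low start can be set beside *Atp2a3*, which did not pass the test. Whether promoter sequence has a part in the rises was not tested. RefSeq's table for GRCm38.p6 matched 5 of the 10 genes, with 250 bases before and 50 bases after the start site of each, printed from 5′ to 3′ on the strand of the gene. *Ryr3*, *Atp2a2*, *Trdn*, *Jsrp1* and *Sln* were not matched. The windows are chr7:126463024-126463323, minus strand (*Atp2a1*), chr1:172219846-172220145, minus strand (*Casq1*), chr3:102086165-102086464, plus strand (*Casq2*), chr7:29125102-29125401, minus strand (*Ryr1*) and chr11:72960919-72961218, plus strand (*Atp2a3*). Capitals mark every E-box, CANNTG, the class of motif bound by the myogenic regulatory factors.
Atp2a1: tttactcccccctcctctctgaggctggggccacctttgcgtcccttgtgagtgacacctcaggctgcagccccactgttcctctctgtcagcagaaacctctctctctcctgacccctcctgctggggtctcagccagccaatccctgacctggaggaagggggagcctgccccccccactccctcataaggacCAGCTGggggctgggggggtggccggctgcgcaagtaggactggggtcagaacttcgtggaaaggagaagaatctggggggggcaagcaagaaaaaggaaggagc
Casq1: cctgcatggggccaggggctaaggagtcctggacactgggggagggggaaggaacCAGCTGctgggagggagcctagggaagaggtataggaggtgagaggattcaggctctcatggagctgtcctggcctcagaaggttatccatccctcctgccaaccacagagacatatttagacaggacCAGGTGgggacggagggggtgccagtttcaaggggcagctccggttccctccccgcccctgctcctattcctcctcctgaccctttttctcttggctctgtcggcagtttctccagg
Casq2: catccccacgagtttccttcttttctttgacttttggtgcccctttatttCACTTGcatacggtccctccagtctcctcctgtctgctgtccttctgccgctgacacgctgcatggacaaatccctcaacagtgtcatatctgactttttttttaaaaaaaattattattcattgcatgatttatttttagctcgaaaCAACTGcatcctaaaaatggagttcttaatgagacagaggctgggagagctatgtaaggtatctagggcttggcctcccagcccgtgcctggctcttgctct
Ryr1: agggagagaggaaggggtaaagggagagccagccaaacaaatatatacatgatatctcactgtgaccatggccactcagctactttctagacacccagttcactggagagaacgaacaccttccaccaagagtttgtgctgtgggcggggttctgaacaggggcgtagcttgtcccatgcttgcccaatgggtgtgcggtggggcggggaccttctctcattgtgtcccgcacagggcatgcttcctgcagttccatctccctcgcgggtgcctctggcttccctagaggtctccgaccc
Atp2a3: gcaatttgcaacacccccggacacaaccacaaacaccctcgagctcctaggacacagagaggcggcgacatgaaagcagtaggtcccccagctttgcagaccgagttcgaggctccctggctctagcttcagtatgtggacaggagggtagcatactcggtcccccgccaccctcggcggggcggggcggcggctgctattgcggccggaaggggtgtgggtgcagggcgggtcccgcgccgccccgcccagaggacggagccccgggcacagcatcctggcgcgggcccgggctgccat

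The E-box reads the same on both strands, so a match on either strand is counted once, and CAGCTG and CAGGTG or its reverse complement CACCTG are subsets of it. *Atp2a1* held 1 E-box, CAGCTG at position -55, where positions count from the start site and are negative upstream. *Casq1* held CAGCTG at position -195 and CAGGTG at position -67. *Casq2* held CACTTG at position -200 and CAACTG at position -52, and it alone of the 5 windows held a match to the MEF2 site, at position -69, with no overlap with either E-box. No E-box was found in the windows of *Ryr1*, which rose, and *Atp2a3*, which did not pass the test. No CArG box and no TATAAA was found in any of the 5 windows on either strand. Among 32851 RefSeq promoters of the same length, 72.3% held CANNTG, 16.3% CAGCTG, 20.2% CAGGTG or CACCTG, 3.19% the MEF2 site, 1.63% a CArG box and 13.6% TATAAA. An E-box is therefore common in windows of this length, and these matches describe letters only.

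The D0 libraries held from 36555048 to 40895840 counts on genes and the D5 libraries from 25449759 to 25811300, so the D0 libraries were deeper. Levels are given as CPM, counts per 1000000 after TMM scaling in edgeR. TPM, which also divides by the exonic length, is used wherever different genes are compared. Of the gene rows, 16290 passed edgeR's filter on low counts, and adjusted p-values of edgeR's quasi-likelihood test run over these genes. Each library also carried ERCC spike-ins, synthetic RNAs that took from 0.726% to 0.859% of the counts at D0 and from 0.72% to 2.09% at D5, a wider spread among the D5 libraries. In edgeR's test 49.2% of calls were lower at D5, against 67.4% with scaling to the spike-ins, which also moved the median of all genes tested from 0.00 to -0.58 on the log2 scale. The labels mention 3 cultured samples but do not say that the libraries came from separate cultures, and p-values measure only the spread between these libraries. No 2 replicates were alike within sampling noise, and each library was counted as 1 sample.

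The myotube markers *Myog*, *Mymk*, *Myh3*, *Ckm*, *Acta1* and *Tnnt3* were all higher at D5 (6 of 6), and their summed level went from 56.6 to 70.3 CPM at D0 to 11932 to 12763 CPM at D5. The myoblast and cell cycle markers *Pax7*, *Myf5*, *Mki67*, *Top2a*, *Ccnb1* and *Cdk1* were all lower (6 of 6), and their sum went from 1693 to 1704 CPM to 76.6 to 85.5 CPM. They were still above 0 in every D5 library, and D5 thus carried the myotube markers against its label of myoblasts. The fibroblast markers *Col3a1*, *Dpt*, *Lum* and *Pdgfra* were higher too (4 of 4), with sums of 538 to 562 CPM at D0 and 3695 to 3863 CPM at D5. Of 7 cardiac markers 2 were higher, 2 were lower, 1 did not pass the test and 2 could not be tested, with sums of 23.1 to 24.3 and 43.7 to 50.9 CPM. *Nppa* and *Myl7* had at most 2 counts in any library, whereas *Myh6* went from 0, 1 and 0 counts to 584, 719 and 690. Adipocyte markers summed to at most 0.0406 CPM and immune and endothelial markers to at most 0.201 CPM. The rises given below therefore moved together with the myotube and fibroblast markers, and the part of each in them was not tested.

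Of the 9 genes tested, 8 were higher at D5 in edgeR's test, where 42.2% of all genes tested were higher. In 9 of the 10 genes every D5 library lay above every D0 library in CPM, which was so for 42.2% of the genes tested. That share covers only genes that passed the filter on low counts, which *Sln*, among these 9, did not. The median log2 fold change of the 9 genes was 6.08, against 0.00 over all genes tested. A log2 fold change of 5 or more was seen in 3.89% of the genes tested, and *Ryr1*, *Ryr3*, *Atp2a1*, *Casq1*, *Casq2* and *Trdn* were among them. *Jsrp1* was among the 10.7% at 2 or more, and *Atp2a2* among the 19.3% at 1 or more. The summed level of the 10 genes went from between 516 and 533 CPM to between 6559 and 6732 CPM. The plot of TPM by library shows how differently the genes started and how close the libraries of a day lay.

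**Figure D1:**
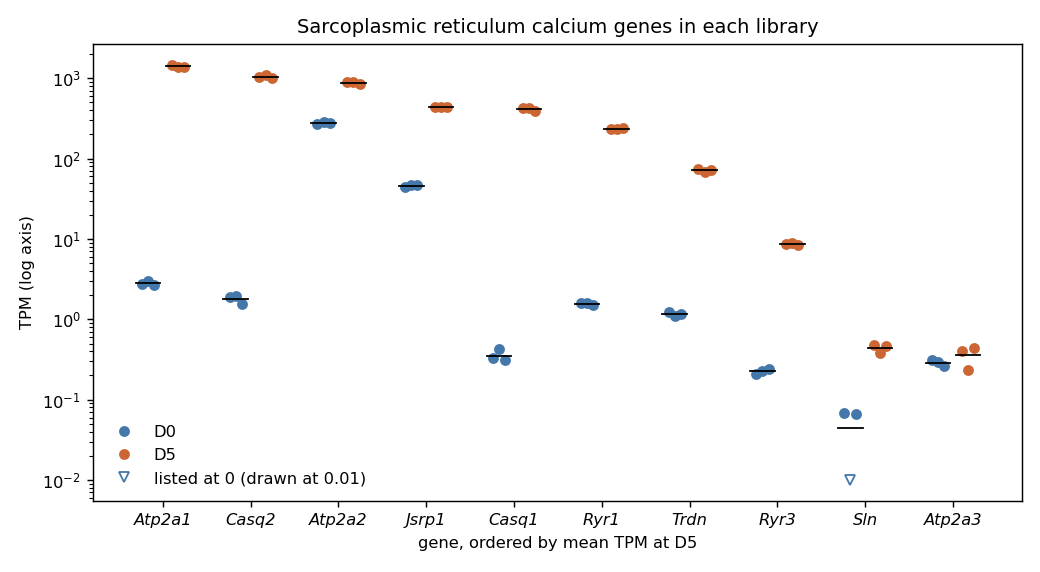
TPM (log axis) of each gene in the 3 D0 libraries (blue) and the 3 D5 libraries (orange), with a bar at the mean of each group; a library listed at 0 is drawn as an open triangle at the foot of the axis. The groups are separate for every gene but *Atp2a3*, and *Atp2a2* and *Jsrp1* start highest at D0, with means of 277 and 46.1 TPM.

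*Ryr1* (ENSMUSG00000030592.18, chr7:29003344-29125179 on GRCm38, minus strand) encodes the calcium release channel of skeletal muscle, opened by the voltage sensor through direct contact. It had 386, 422 and 376 counts in D0 replicates 1, 2 and 3, or 10.3, 10 and 9.34 CPM. In the D5 libraries it had 40829, 41157 and 42136 counts, or 1626, 1670 and 1694 CPM. The transcript was thus already countable in myoblasts, the groups were far apart, and the D5 libraries lay within a narrow band. The mean went from 9.89 ± 0.499 to 1663 ± 34.6 CPM (SD, n = 3). The rise was 168-fold, a log2 fold change of 7.39 (SE 0.047, edgeR's quasi-likelihood test, adjusted p = 3.2e-40), and it ranked 274 by size of rise among the 16290 genes tested.

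*Ryr3* (ENSMUSG00000057378.15, chr2:112631355-113217096, minus strand) encodes a ryanodine receptor that developing muscle makes besides *Ryr1* and that opens in response to calcium. Its counts were 44, 53 and 53 at D0 and 1305, 1354 and 1303 at D5. That was 1.17, 1.26 and 1.32 CPM against 52, 54.9 and 52.4 CPM. Again no D5 library came near a D0 library, but the level reached was far below that of *Ryr1*. Means were 1.25 ± 0.0713 and 53.1 ± 1.62 CPM (SD, n = 3), and edgeR gave a 42.3-fold rise (log2 5.40, SE 0.077, adjusted p = 5.7e-32). Of the exonic length of *Ryr3*, 4.83% also lies in exons of *Aven* on the opposite strand, which had 490 to 596 counts at D0 and 287 to 289 at D5. The strand setting of the counting is not stated, and which of the D0 counts belong to which gene was not tested. *Ryr2*, the channel of the heart, had 0, 2 and 1 counts at D0 and 4, 3 and 2 counts at D5 and was not tested. The ratio of its pooled counts per depth was 4.81, with an exact 95% interval from 1.2 to 27.6 that covers counting error only. Without the filter on low counts, the log2 fold change of *Ryr2* was 2.06 and did not pass edgeR's test (adjusted p = 0.0737).

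*Atp2a1* (ENSMUSG00000030730.12, chr7:126445858-126463108, minus strand) encodes SERCA1, the pump of fast-twitch fibres. It had 107, 127 and 107 counts at D0, or 2.86, 3.02 and 2.66 CPM. At D5 it had 40632, 39034 and 39218 counts, or 1618, 1584 and 1576 CPM. A transcript low in myoblasts, though counted in every D0 library, had become the most abundant of the 10 genes per length. The mean went from 2.84 ± 0.182 to 1593 ± 22 CPM (SD, n = 3). In edgeR's test the rise was 559-fold (log2 9.13, SE 0.053, adjusted p = 9.0e-41), and at 1421 ± 47.4 TPM *Atp2a1* ranked 59 by TPM among all genes at D5. Of its exonic length, 21.9% also lies in exons of *Rabep2* on the opposite strand, which had 717 to 807 counts at D0 and 438 to 498 at D5. Whether counting used the strand is not stated, and which of the D0 counts belong to which gene was not tested.

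*Atp2a2* (ENSMUSG00000029467.15, chr5:122453513-122502225, minus strand) encodes SERCA2, the pump of slow and cardiac muscle and, as a splice form, of nearly every other cell. It had 18290, 20811 and 19319 counts at D0 and 42846, 43676 and 42190 counts at D5. In CPM these were 488, 495 and 480 against 1706, 1772 and 1696. It was by far the most abundant of the 10 genes in myoblasts and rose the least of those that passed the test. From 488 ± 7.64 to 1725 ± 41.6 CPM (SD, n = 3), the rise was 3.54-fold in edgeR's test (log2 1.82, SE 0.033, adjusted p = 3.6e-29). Scaling to the spike-ins gave a log2 fold change of 1.27 (adjusted p = 0.0431, edgeR). The splice forms of *Atp2a2* are counted together, so a switch between them would not be seen.

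*Atp2a3* (ENSMUSG00000020788.15, chr11:72961169-72993044, plus strand) encodes SERCA3, a pump best known from blood cells and epithelia. Its counts were 18, 19 and 16 at D0 and 17, 10 and 19 at D5. In CPM these were 0.481, 0.452 and 0.397 against 0.677, 0.406 and 0.764. The groups overlapped, with D5 replicate 2 below 2 of the D0 libraries. Its log2 fold change of 0.47 (SE 0.31) did not pass edgeR's test (adjusted p = 0.151), and it turned to -0.27 (adjusted p = 0.748, edgeR) with scaling to the spike-ins. At 10 to 19 counts per library a modest change was not detectable at this depth.

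*Sln* (ENSMUSG00000042045.6, chr9:53850164-53854560, plus strand) encodes sarcolipin, a membrane peptide that binds SERCA and uncouples its ATP use from calcium transport. It had 1, 0 and 1 counts at D0 and 5, 4 and 5 counts at D5. That was at most 0.0267 CPM at D0 and from 0.162 to 0.201 CPM at D5, against a limit of 3 counts per library of 0.0714 to 0.0801 CPM at D0 and 0.119 to 0.122 CPM at D5. All D5 libraries were above all D0 libraries, yet the gene stayed close to the limit on both days. The ratio of pooled counts per depth was 11.2, with an exact 95% interval from 2.58 to 102 that covers counting error only. Without the filter on low counts, edgeR gave it a log2 fold change of 3.17 (adjusted p = 0.00195). Even so its D5 level, 0.441 ± 0.0572 TPM (SD, n = 3), was far below the 1421 TPM of *Atp2a1*, the pump it acts on.

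*Casq1* (ENSMUSG00000007122.11, chr1:172209894-172219868, minus strand) encodes the calsequestrin of fast-twitch muscle, the main calcium store of the lumen. It had 7, 10 and 7 counts at D0, or 0.187, 0.238 and 0.174 CPM. At D5 it had 6666, 6701 and 6214 counts, or 265, 272 and 250 CPM. It started lower in CPM than any other member that was tested, and every D5 library was far above it. Means were 0.2 ± 0.0338 and 262 ± 11.4 CPM (SD, n = 3). edgeR's test gave a 1285-fold rise (log2 10.33, SE 0.082, adjusted p = 3.3e-38), rank 41 by size of rise. With as few as 7 counts in a D0 library, the size of this fold rests on few reads. Of its exonic length, 8% also lies in exons of *Gm17224* on the opposite strand. That gene had 1 to 3 counts at D0 and 6 to 9 at D5. The strand setting is not stated, and which of the D0 counts belong to which gene was not tested.

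*Casq2* (ENSMUSG00000027861.13, chr3:102086415-102146514, plus strand) encodes the calsequestrin of heart, slow and developing muscle. Its counts were 57, 65 and 48 at D0 and 22332, 24076 and 22291 at D5. These were 1.52, 1.55 and 1.19 CPM against 889, 977 and 896 CPM. The D5 libraries again lay close to each other and far from D0. The mean went from 1.42 ± 0.198 to 921 ± 48.9 CPM (SD, n = 3), a 647-fold rise in edgeR's test (log2 9.34, SE 0.066, adjusted p = 2.1e-39).

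*Trdn* (ENSMUSG00000019787.9, chr10:33080554-33476709, plus strand) encodes triadin, which anchors calsequestrin to the ryanodine receptor. It had 129, 125 and 125 counts at D0 and 5491, 5112 and 5452 at D5. In CPM it went from 3.44, 2.97 and 3.1 to 219, 207 and 219. The libraries of each day were close together. Means of 3.17 ± 0.243 and 215 ± 6.61 CPM (SD, n = 3) gave a rise of 67.9-fold in edgeR's test (log2 6.08, SE 0.055, adjusted p = 5.6e-37).

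*Jsrp1* (ENSMUSG00000020216.13, chr10:80808496-80813498, minus strand) encodes a junctional protein that binds both calsequestrin and the voltage sensor. It had 643, 762 and 725 counts at D0, or 17.2, 18.1 and 18 CPM. At D5 it had 4617, 4771 and 4758 counts, or 184, 194 and 191 CPM. It was thus present in myoblasts well above *Ryr1* per length, and rose less than the channel. From 17.8 ± 0.523 to 190 ± 5.11 CPM (SD, n = 3), the rise was 10.7-fold in edgeR's test (log2 3.41, SE 0.041, adjusted p = 1.0e-33).

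Per length, the order of the genes at D5 was *Atp2a1* (1389 to 1475 TPM), *Casq2* (1009 to 1089), *Atp2a2* (859 to 889), *Jsrp1* (437 to 443), *Casq1* (394 to 431), *Ryr1* (233 to 239), *Trdn* (67.7 to 74.1), *Ryr3* (8.5 to 8.83), *Sln* (0.376 to 0.479) and *Atp2a3* (0.234 to 0.446). With exonic length, neighbours in this order did not overlap between libraries except *Sln* and *Atp2a3*, whose levels could not be told apart. The order was not computed with another length. Exonic length and longest transcript were 9352 and 4514 bases for *Trdn*, 21838 and 15358 for *Ryr1*, and 1951 and 1847 for *Casq1*. Close neighbours, such as *Jsrp1* and *Casq1*, could thus change places with another length. At D0 the order was *Atp2a2* first, at 277 ± 4.71 TPM, then *Jsrp1*, at 46.1 ± 2.01 TPM. All others were at or below 3.01 TPM in every D0 library, from *Atp2a1* (2.68 to 3.01 TPM) down to *Sln*. By exonic length, *Atp2a1* moved from place 3 to 1, *Casq2* from 4 to 2 and *Casq1* from 7 to 5. At D0 the libraries of *Casq2* (1.53 to 1.96 TPM) overlapped those of *Ryr1* (1.5 to 1.6 TPM), at place 5. The D0 places of *Casq2* and *Ryr1* could thus not be told apart. *Atp2a2* moved from 1 to 3 and *Jsrp1* from 2 to 4.

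Within families, the shares of the paralogs shifted between D0 and D5. *Atp2a1* made up 1.01%, 1.05% and 0.958% of SERCA TPM in D0 replicates 1, 2 and 3. In the D5 libraries it made up 62.4%, 61% and 61.9%. The pump make-up was thus nearly all *Atp2a2* at D0 and a mixture with more *Atp2a1* than *Atp2a2* at D5. The *Atp2a2* share went from 98.9% ± 0.054 to 38.2% ± 0.715 (SD, n = 3) while its own level rose, and *Atp2a3* took 0.103% ± 0.00885 and 0.0157% ± 0.00489. Counted without division by length, the *Atp2a1* share at D5 was 48%, below that of *Atp2a2*, so which pump leads depends on whether length is divided out.

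*Ryr1* made up 88.4%, 87.1% and 85.9% of ryanodine receptor TPM at D0 and 96.4%, 96.3% and 96.6% at D5. The share of *Ryr3* went the other way, from 12.7% ± 1.17 to 3.54% ± 0.106 (SD, n = 3), although its level rose. *Casq1* made up 14.7%, 17.7% and 17% of calsequestrin TPM at D0 and 29.5%, 28.1% and 28.1% at D5. *Casq2* remained the larger share, at 83.5% ± 1.59 and then 71.4% ± 0.819 (SD, n = 3). In all 3 families the shares of the 2 days did not overlap, with differences of 60.7, 9.32 and 12.1 percentage points for *Atp2a1*, *Ryr1* and *Casq1*. The two-sided exact permutation test gave p = 0.1 for each of the 3 shares, adjusted p = 0.1, which is the smallest that 3 libraries against 3 can give. Paralogs shared almost no sequence in stretches of 50 bases: 0.115% of the stretches of *Atp2a1* and 0.0745% of those of *Atp2a3* were shared, and none of those of the other 6 family members.

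**Figure D2:**
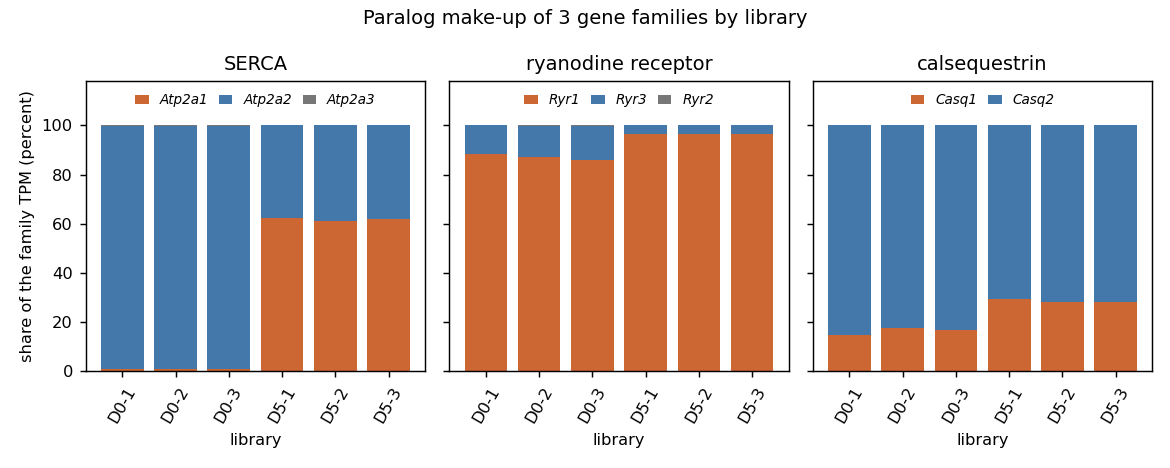
Share of each paralog in the summed TPM of its family (percent, stacked bars) in each of the 6 libraries, for SERCA, the ryanodine receptors and calsequestrin. *Atp2a1* takes about 1% of SERCA transcripts in the D0 libraries and 61% to 62.4% at D5, while *Ryr1* and *Casq2* are the larger share on both days.

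Summed over paralogs, SERCA transcripts went from 280 ± 4.83 to 2300 ± 57.2 TPM (SD, n = 3), or 8.2-fold. Ryanodine receptor transcripts went from 1.8 ± 0.0453 to 245 ± 2.7 TPM, or 136-fold. Calsequestrin transcripts went from 2.15 ± 0.278 to 1460 ± 55.3 TPM, or 680-fold. Myoblasts thus held pump transcripts with few for channel or buffer, and at D5 the pump family was nearer in level to each of the other families. Pump outnumbered channel by 156 ± 4.02 to 1 at D0 and by 9.4 ± 0.273 to 1 at D5, and pump outnumbered buffer by 132 ± 17.3 and then 1.58 ± 0.0626. The ratio of calsequestrin to channel transcripts went the other way, from 1.19 ± 0.126 to 5.97 ± 0.292. *Trdn* per *Ryr1* transcript went from 0.749 ± 0.0501 to 0.302 ± 0.012, and *Jsrp1* per *Ryr1* transcript from 29.5 ± 2.15 to 1.87 ± 0.0277. None of these ratios overlapped between D0 and D5 libraries, and none was tested. Their sizes rest on exonic length, and they were not computed with another length.

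Of 14 release channels and partners beyond the 10 genes, 13 were tested, of which 7 were higher, 5 lower and 1 not called, with a median log2 fold change of 0.30. That split is near the 42.2% higher and 40.8% lower of all genes tested, and with scaling to the spike-ins 4 were higher and 3 lower. *Hrc*, a luminal calcium binder that contacts triadin, rose the most, from 0.978 ± 0.258 to 516 ± 6.77 CPM (log2 9.05, adjusted p = 4.6e-39, edgeR). *Tmem38a*, the counter-ion channel of the reticulum, was the highest of the list per length at D5 and went from 12.4 ± 0.315 to 633 ± 6.87 CPM (log2 5.68, adjusted p = 6.0e-39, edgeR). The other calcium release channels, the IP3 receptors, shifted little next to *Ryr1*. *Itpr3* fell from 207 to 107 CPM (log2 -0.95, adjusted p = 1.5e-21, edgeR). *Itpr1* was lower by a small step (log2 -0.38, adjusted p = 2.0e-08, edgeR) and *Itpr2* higher (log2 0.30, adjusted p = 5.0e-07, edgeR). Under spike-in scaling *Itpr1* no longer passed, at -0.96 (adjusted p = 0.146, edgeR), and *Itpr2* turned to -0.28 (adjusted p = 0.701, edgeR).

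The immunophilins that bind ryanodine receptors moved apart. *Fkbp1a* fell from 332 ± 2.53 to 166 ± 1.57 CPM (0.501 of its D0 level, adjusted p = 9.6e-23, edgeR), and *Fkbp1b* rose from 1.09 ± 0.251 to 3.83 ± 0.603 CPM (log2 1.82, adjusted p = 1.0e-10, edgeR), a call lost under spike-in scaling (1.14, adjusted p = 0.088, edgeR). *Calm2*, for calmodulin, which regulates the channel, had the largest fall (288 to 139 CPM, log2 -1.05, adjusted p = 1.4e-21, edgeR). *Asph*, whose locus also makes junctin, rose from 105 to 137 CPM (log2 0.39, adjusted p = 7.1e-12, edgeR) but turned to -0.16 (adjusted p = 0.828, edgeR) under spike-in scaling. Its isoforms are counted together, so junctin itself was not measured.

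Among SERCA regulators and luminal calcium binders, 9 of 10 were tested, of which 6 were higher, 1 lower and 2 not called, with a median log2 fold change of 0.39, where 42.2% of all genes tested were higher and 40.8% lower. With spike-in scaling 4 were higher and 1 lower. *Srl*, for sarcalumenin, a calcium binder of the non-junctional reticulum, went from 11 ± 0.727 to 1043 ± 34.9 CPM (log2 6.57, adjusted p = 4.6e-39, edgeR). *Mrln*, for myoregulin, an inhibitory peptide of SERCA, went from 1.31 ± 0.0505 to 10.4 ± 0.393 CPM (log2 2.98, adjusted p = 1.9e-20, edgeR). *Strit1*, for the peptide DWORF that counters such inhibitors and listed as Gm34302, had 0 counts in every D0 library and 15, 22 and 12 at D5. Against 3 counts per library it was at least 8.73-fold higher (adjusted p = 1.7e-09, edgeR). *Pln*, for phospholamban, had 1, 0 and 1 counts at D0 and 2, 3 and 2 at D5 and was not tested. *Mrln* was thus the only one of the peptides *Sln*, *Pln*, *Mrln* and *Strit1* above 1 CPM in the D5 libraries. *Calr*, for calreticulin, the luminal binder of ordinary cells, was the highest of the list per length at D5 and did not pass the test (666 ± 11.9 and 679 ± 17.5 CPM, log2 0.03, adjusted p = 0.396, edgeR), and its sign turned under 3 of the alternatives. *Rcn1*, another general luminal binder, had the largest fall (213 to 105 CPM, log2 -1.02, adjusted p = 2.0e-22, edgeR).

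All 8 of the voltage sensor and junction genes were higher, against 42.2% of all genes tested, with a median log2 fold change of 2.49. With spike-in scaling 5 of the 8 were still called higher. *Cacna1s*, for the pore-forming subunit of the voltage sensor, rose the most, from 0.343 ± 0.0269 to 346 ± 17.3 CPM (log2 9.97, adjusted p = 1.3e-38, edgeR). *Stac3*, an adaptor needed for coupling between sensor and channel, went from 6.53 ± 0.563 to 101 ± 3.88 CPM (log2 3.95, adjusted p = 4.6e-32, edgeR). *Bin1*, which shapes T-tubules, was the highest per length at D5 (437 to 1520 CPM, log2 1.80, adjusted p = 2.8e-29, edgeR), a call lost under spike-in scaling (1.23, adjusted p = 0.0511, edgeR).

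Of 8 genes for extrusion across the plasma membrane and cytosolic buffering, 5 were tested, of which 4 were higher and 1 lower, with a median log2 fold change of 1.56, where 42.2% of all genes tested were higher and 40.8% lower. With spike-in scaling 2 were higher and 0 lower. *Pvalb*, for parvalbumin, the cytosolic buffer of fast fibres, went from 0.0657 ± 0.0482 to 37.5 ± 1.83 CPM (log2 9.05, adjusted p = 1.7e-30, edgeR). Its D0 counts were 2, 5 and 1, and without D0 replicate 2 the log2 fold change was 9.77. *Slc8a3*, a sodium-calcium exchanger, had 2 counts in each D0 library and 13, 16 and 9 at D5, a ratio of pooled counts per depth of 10.2 (exact 95% interval 4.26 to 29.4, counting error only). *Atp2b4*, a plasma membrane pump, fell from 99.7 ± 4.25 to 64.8 ± 2.99 CPM (log2 -0.62, adjusted p = 9.7e-15, edgeR), a call lost under spike-in scaling (-1.18, adjusted p = 0.0662, edgeR). Its paralog *Atp2b3* had 0 counts at D0 and 7, 3 and 5 at D5 and was not tested. The D5 mean of *Atp2b3* was 2.66-fold the limit of 3 counts per library at D0, with D5 replicate 2 itself at 3 counts. *Atp2b2* had 0 counts in all 6 libraries.

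General residents of the endoplasmic reticulum went the other way. Of 15 chaperone, translocation and glycosylation genes 1 was higher, 13 were lower and 1 was not called, against 42.2% higher and 40.8% lower among all genes tested, with a median log2 fold change of -0.57. With spike-in scaling 0 were higher and 6 lower. *Hsp90b1*, a chaperone, had the largest fall (892 to 402 CPM, log2 -1.15, adjusted p = 4.2e-24, edgeR), and *P4hb*, a disulfide isomerase, was the highest per length at D5 (593 to 481 CPM, log2 -0.30, adjusted p = 3.8e-10, edgeR), a call lost under spike-in scaling (-0.86, adjusted p = 0.188, edgeR). *Dad1*, of the glycosylation complex, was the only one higher (log2 0.49, adjusted p = 2.5e-12, edgeR) and turned to -0.063 under spike-in scaling (adjusted p = 0.938, edgeR). With TMM scaling, the rises of the 8 members called thus stood beside lower transcripts for most of the general residents measured.

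**Figure D3:**
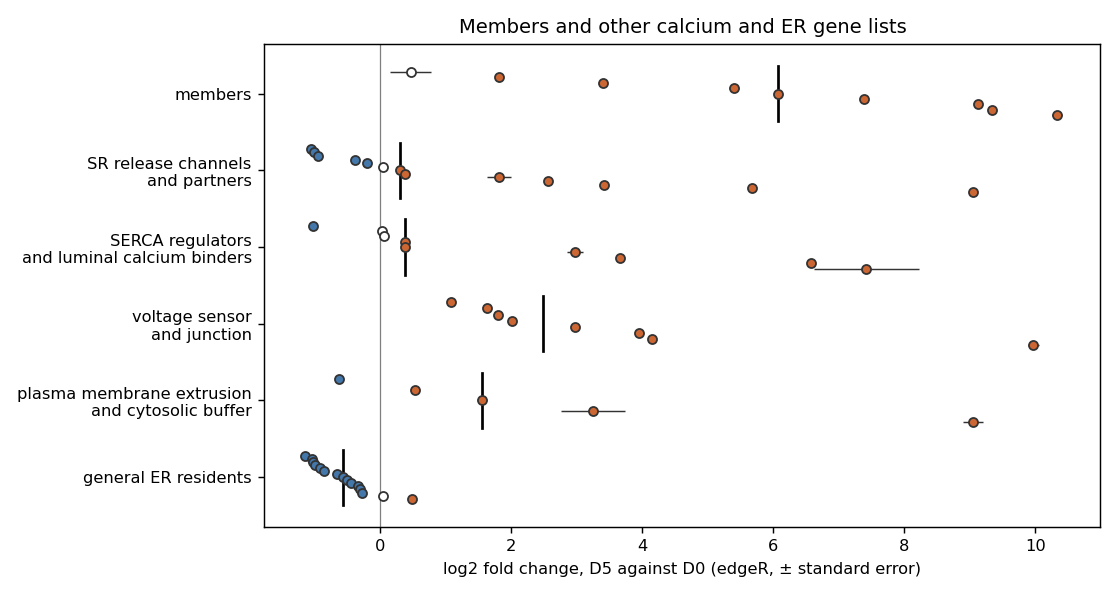
Log2 fold change of D5 against D0 (edgeR, points with standard error bars) for the 10 genes, labelled members, and for 5 lists of other calcium and endoplasmic reticulum genes; orange points were higher, blue points lower and open points not called, and vertical bars mark the median of each list. The tested members have a median of 6.08, the voltage sensor list 2.49 and the general endoplasmic reticulum residents -0.57.

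The genes with the pattern most like a member were sought among 16274 tested genes by the root mean square difference in log2(TPM + 1) over the 6 libraries, which share 2 days and thus mainly 1 contrast. For *Atp2a1* they were *Mymk*, a fusion protein of the myoblast membrane (0.28), *Myh1*, a fast myosin (0.29), and *Tnni2*, the fast troponin I (0.46). For *Casq2* they were *Myl4*, an embryonic and atrial light chain (0.33), *Tnni1*, the slow troponin I (0.44), and *Ckm*, the muscle creatine kinase (0.48). For *Atp2a2* they were *Cryab*, a small heat shock protein (0.14), *Cst3*, a protease inhibitor (0.18), and *Spp1*, osteopontin (0.21). Of the 3 genes named for each, 2 encode contractile proteins for *Atp2a1*, 2 for *Casq2* and 0 for *Atp2a2*, which was abundant on both days. No other member was compared in this way.

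Of the members that passed, each kept its direction and its call under every alternative that could test it. The log2 fold change ranged from 8.57 to 9.16 for *Atp2a1*, from 6.83 to 7.41 for *Ryr1*, from 8.81 to 9.4 for *Casq2* and from 9.8 to 10.5 for *Casq1*. The lowest value came each time from scaling to the spike-ins. The plot of the alternatives shows these shifts beside the distance between genes.

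**Figure D4:**
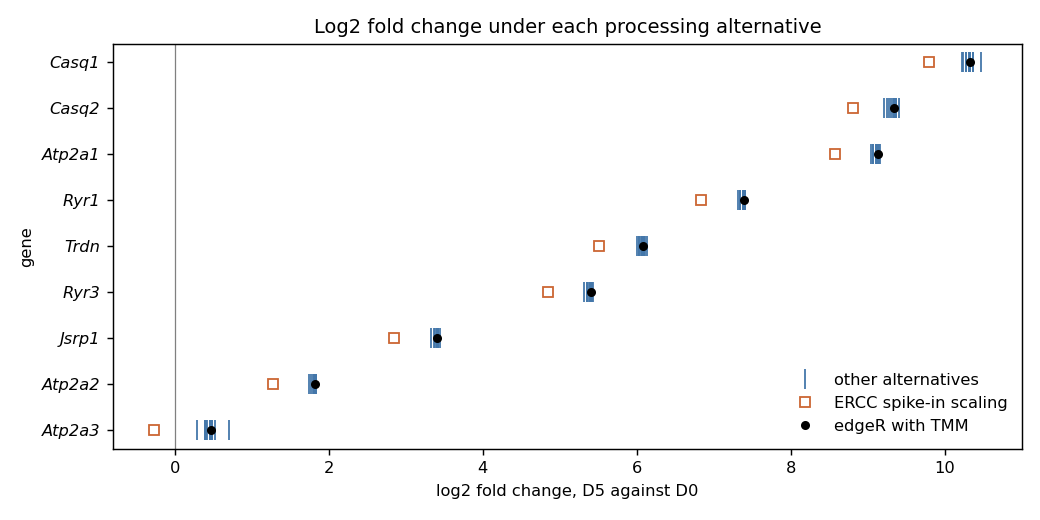
Log2 fold change of D5 against D0 of each tested gene under edgeR with TMM (black points), scaling to the ERCC spike-ins (orange squares) and all other alternatives (blue ticks). The spike-in value is the lowest for every gene, and *Atp2a3* is the 1 gene that it takes below 0, at -0.27.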

How the data were processed

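Total RNA of C2C12 cells was sequenced by the authors, and the deposited tables, 1 per library, hold counts of reads per gene, made with featureCounts on GRCm38 per the labels. The authors' description also mentions a normalization of these counts by library size, and does not say whether the deposited values are from before or after it. They are whole numbers whose totals differ between libraries and were treated as raw counts, on which every count, CPM and p-value here rests. Tophat2 is named as aligner in the labels and HISAT2 in the study's methods. The annotation release, strand setting, read length and handling of reads with several matches are not given in the sources used here.

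Libraries were grouped by the day in their titles. Neither the 92 ERCC rows nor a nameless row, equal to its column's sum, entered library sizes or tests. CPM used edgeR 4.0.16 (R 4.3.3) with TMM. TPM used exonic lengths from GENCODE M21, matched for 99.9% of gene rows by identifier without version. Positions are from the same annotation. After filterByExpr, D5 and D0 were compared by edgeR's quasi-likelihood test with Benjamini-Hochberg adjustment and a threshold of 0.05. Each standard error was obtained as the size of the log2 fold change over the root of the F statistic. Intervals and the limit of 3 counts cover counting error only. For replicate pairs, chi-square per degree of freedom was 2.4 to 3.89.

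The members, the lists of other genes and the tests were chosen with earlier results of these data known. The genes named are the 10 members and, from each list, the called gene with the largest rise, the called gene with the largest fall, the gene highest in TPM at D5, any gene at 3 counts or fewer in all libraries of a group, and genes acting directly on a member. Genes of like pattern are the 3 nearest to each of the 3 members highest in TPM at D5. Alternatives were DESeq2 1.42.0, upper-quartile factors, total counts, ERCC scaling, 2 other filters, each library left out and the replicate number as a block, and for shares 2 other lengths. On simulated data of 16080 genes drawn from these libraries, edgeR with TMM recovered 96% of genes changed 2-fold and 100% of those changed 4-fold, and 2.0% of its calls fell on unchanged genes. Only 100 genes were changed at each fold, as many up as down, none of them low in counts, and with 1 fixed spread. The simulation therefore cannot give the error of a comparison with 82.9% of genes called, of the scaling, or of genes with few counts.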

Additional observations from a re-analysis of the deposited data

How the results depend on the processing

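The members called higher at D5 numbered 7 to 9 under all alternatives (7 with at least 10 counts in every library, where *Casq1* could not be tested, and 9 without a filter on low counts, where *Sln* entered), 8 with DESeq2, and 8 in each fit that left out a library. None was called lower in any. Of all genes, 13510 were called in the fit as reported, 13236 to 13599 with a library left out, and 5560 under ERCC scaling. That scaling also gave 4 higher and 3 lower release channels and partners, 5 higher voltage sensor genes, 4 higher SERCA regulators and luminal binders, 2 higher and 0 lower extrusion and buffer genes, and 0 higher and 6 lower general residents. The cause was not tested. It turned the log2 fold changes of *Atp2a3* (-0.27), *Itpr2* (-0.28), *Asph* (-0.16), *Calr* (-0.55) and *Dad1* (-0.063), and *P4hb* no longer passed. *Calr* was also at -0.055 with total counts and -0.024 without a filter. Extrusion and buffer genes called higher numbered 2 with at least 10 counts in every library, since fewer genes were tested. The median of the members tested was 5.51 to 6.13. Shares of counts without length were 0.579% and 48% for *Atp2a1* at D0 and D5, 88.6% and 96.9% for *Ryr1* and 12.3% and 22.2% for *Casq1*. With the longest transcript they were 0.941% and 60.1% for *Atp2a1* and again 88.6% and 96.9% for *Ryr1*. With a library left out the shares were 0.985% to 1.03% and 61.4% to 62.1% for *Atp2a1*, 86.5% to 87.8% and 96.4% to 96.5% for *Ryr1*, and 15.8% to 17.4% and 28.1% to 28.8% for *Casq1*. Where 1 library was left out, the *Atp2a3* log2 fold change ran from 0.29 to 0.7 and it was called in none of these fits.

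Replicate numbers are shared between D0 and D5, but the deviations of same-numbered libraries from their group means correlated at r = 0.0275, 0.104 and 0.0469 across genes, so the numbers were not taken as a pairing. Each library correlated best with its own number, a hint from the data and not the design. With the replicate block 13558 genes were called, and 8 members were higher. Depth limits *Atp2a3*, *Sln*, *Ryr2* and *Pln*, which had at most 19 counts in any library.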
